A study of Mus musculus with 12 samples.

Results

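The 10 genes described here are marker genes of Kupffer cells, the resident macrophages of the liver. They are Clec4f, Cd5l, Marco, Vsig4, Timd4, C1qa, C1qb, C1qc, Cd68 and Csf1r. They were taken by symbol from a table of 24062 genes, and all 10 were found there. Whole liver was sequenced from 6 female C57BL/6J mice on a control diet and 6 on a matched diet with BIBB-515 at 55 mg/kg body weight. BIBB-515 inhibits lanosterol synthase, an enzyme of cholesterol synthesis, and the study used it to ask how inhibition of that enzyme alters hepatic gene expression. All mice arrived at 6 weeks of age, were acclimated for 2 weeks and ate the control diet for 3 days before the diets were assigned. The study assigned 11 mice to each diet, and 6 of each were sequenced. The libraries held 22764819 to 27914647 assigned reads in the control group and 24223939 to 31058370 in the BIBB-515 group.

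Kupffer cells line the liver sinusoids, where they take up particles, dying cells and aged red cells from the blood. They carry scavenger and complement receptors, secrete the C1q chains that start the classical complement cascade, and depend on signals through the receptor Csf1r. In RNA from whole liver their transcripts are diluted by those of hepatocytes, and fewer Kupffer cells and less RNA per cell cannot be told apart. Levels are given as CPM, read counts divided by the library size after TMM scaling and brought to a common total. The liver label held in the data, since Alb, the serum albumin of hepatocytes, stood at 120094 CPM ± 6000 (SD, n = 6) in the control group. The macrophage markers were present as well, with 141 to 7196 reads for each marker in each library.

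None of the 10 markers passed the test of BIBB-515 against control. In edgeR's quasi-likelihood test 0 of 10 passed a 5% false discovery rate (FDR), against 13.7% of the 12481 genes tested, and 0 of 10 had an unadjusted p under 0.05. DESeq2 and limma-voom also called 0 of 10. The median log2 fold change of the markers was 0.05, against -0.01 over all genes tested, with 6 markers higher and 4 lower. The groups overlapped in CPM for all 10 markers, while they did not overlap for 7.07% of all genes tested. For the 9 markers other than Marco, the 95% intervals of the fold change lay between 0.702 and 1.55. Over all genes tested 896 were called higher and 809 lower. With scaling by library size alone the split was 1496 to 490, and the median of all genes moved to 0.04.

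**Figure D1:**
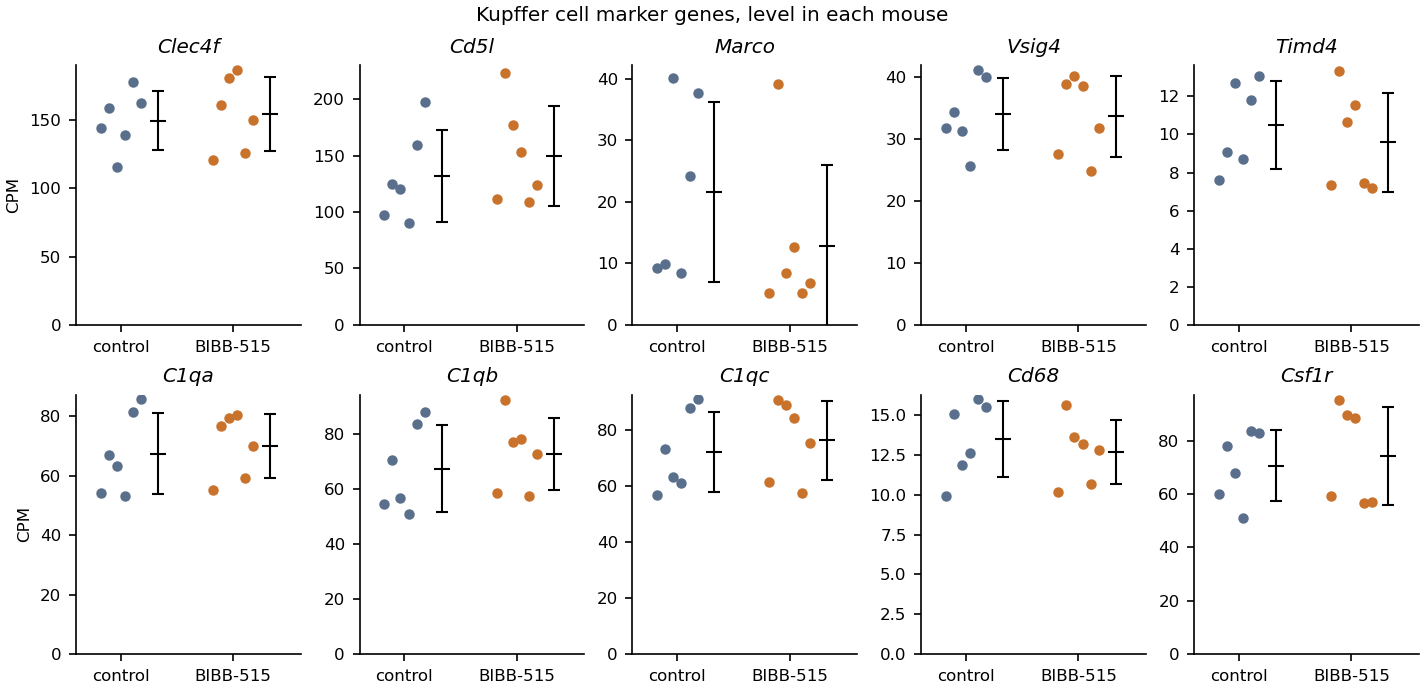
CPM of each marker gene (y axis, linear from 0) in the 6 control and 6 BIBB-515 mice, where points are mice in order of their number and the bar beside them is the mean with its SD (for Marco with BIBB-515 the lower end is cut at 0). In all 10 panels the groups overlap, and Marco has the widest spread.

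Among the surface receptors, Clec4f encodes a C-type lectin that in mouse liver marks Kupffer cells. It ranged from 115 to 178 CPM in controls, with a median of 152, and from 121 to 187 with BIBB-515, with a median of 156. The fold change was 1.03, with a 95% interval of 0.861 to 1.24 (edgeR FDR = 0.846). Control 3 had the lowest level and BIBB-515 9 the highest, and both groups covered nearly the same range. Vsig4, the complement receptor that binds C3b, ranged from 25.6 to 41.0 CPM in controls and from 24.9 to 40.1 with BIBB-515. The means were 34.0 ± 5.80 and 33.6 ± 6.51 CPM (SD, n = 6), and the fold change was 0.989 with an interval of 0.809 to 1.21 (edgeR FDR = 0.952). Vsig4 had the fold change nearest to 1 of the 10 markers. Its sign turned under library size scaling, as the closing section gives.

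Timd4, a receptor for phosphatidylserine on dying cells and a marker of long-lived Kupffer cells, also overlapped between the diets. It ranged from 7.59 to 13.1 CPM in controls, with a median of 10.5, and from 7.19 to 13.3 with BIBB-515, with a median of 9.04. Its fold change was 0.916, with an interval of 0.702 to 1.19 (edgeR FDR = 0.682). Cd5l, a secreted protein of tissue macrophages that binds lipids and inhibits apoptosis, ranged from 90.3 to 198 CPM in controls and from 109 to 223 with BIBB-515. Its medians were 123 and 139 CPM, and its fold change of 1.14 had an interval of 0.836 to 1.55 (edgeR FDR = 0.600). The highest Cd5l values of the groups were in control 6 and BIBB-515 7.

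Marco, a scavenger receptor for bacteria and modified lipoproteins, varied far more among mice than the other markers. In control mice 1 to 6 it stood at 9.29, 9.84, 40.2, 8.41, 24.2 and 37.7 CPM. In BIBB-515 mice 6 to 11 it stood at 5.17, 39.2, 8.49, 12.7, 5.20 and 6.74 CPM. Controls 3, 5 and 6 were high and the other 3 controls low, whereas with BIBB-515 mouse 7 alone was near the high controls. The highest of the 12 values was 7.78 times the lowest, and no other marker exceeded 2.47 times. The log2 fold change was -0.73 (SE 0.54, 95% interval -1.89 to 0.43, edgeR FDR = 0.401), and the two-sided exact permutation test over all labelings of the 12 mice gave p = 0.186, where the smallest p possible is 0.00216. Without BIBB-515 7 the log2 fold change was -1.50 and edgeR's FDR 0.0456, the only fit of those run in which any marker was called. The 11 other fits that left out a mouse gave FDR values up to 0.633. All 7 Marco exons with a mean of at least 50 reads had lower mean CPM with BIBB-515, with log2 ratios from -0.93 to -0.52 and no test.

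The chains C1qa, C1qb and C1qc form C1q, the recognition part of the first complement component, and are made in the liver mainly by macrophages. Their genes lie side by side on chromosome 4 of mm10, on the minus strand. C1qb spans chr4:136880145-136886177, C1qc chr4:136889802-136892914 and C1qa chr4:136895916-136898844. C1qa ranged from 53.1 to 85.6 CPM in controls and from 55.3 to 80.3 with BIBB-515, with medians of 64.9 and 73.2. C1qb ranged from 50.9 to 87.9 CPM and from 57.4 to 92.2, with medians of 63.7 and 74.9. C1qc ranged from 56.7 to 91.0 CPM and from 57.5 to 90.8, with medians of 68.3 and 79.8. All 3 chains overlapped between the diets over nearly their whole range. The fold changes were 1.04 for C1qa, 1.08 for C1qb and 1.06 for C1qc, with edgeR FDR values of 0.813, 0.675 and 0.746. The widest of the 3 intervals, that of C1qb, ran from 0.863 to 1.35.

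Cd68, a lysosomal glycoprotein of macrophages in all tissues, ranged from 9.95 to 15.98 CPM in controls and from 10.1 to 15.6 with BIBB-515. Its medians were 13.8 and 13.0 CPM, and its fold change was 0.941 with an interval of 0.779 to 1.14 (edgeR FDR = 0.692). Csf1r, the receptor for the growth factors Csf1 and Il34, ranged from 50.9 to 83.6 CPM in controls and from 56.5 to 95.1 with BIBB-515. Its medians were 72.9 and 73.8 CPM, and its fold change was 1.05 with an interval of 0.830 to 1.34 (edgeR FDR = 0.797). With BIBB-515, Csf1r fell into 3 high mice at 88.3 to 95.1 CPM and 3 low mice at 56.5 to 59.4 CPM. In GENCODE transcripts 14.3% of the 50-base words of Csf1r also occur in transcripts assigned to Hmgxb3, and no such word of the other 9 markers occurs in another gene.

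**Figure D2:**
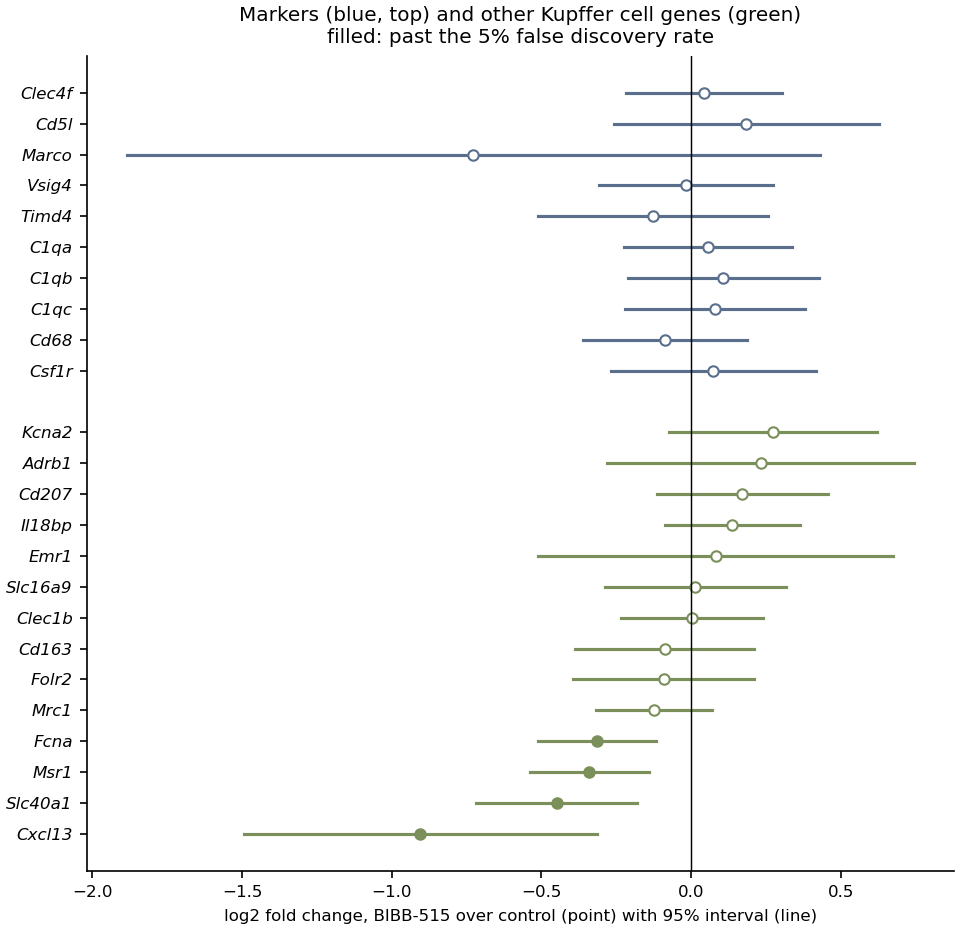
Log2 fold change of BIBB-515 over control (x axis) with 95% intervals for the 10 markers (blue) and 14 other Kupffer cell genes (green), filled where edgeR's FDR was under 5%. All 10 marker intervals cross 0, and the 4 filled genes Fcna, Msr1, Slc40a1 and Cxcl13 lie below 0.

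Levels were compared between genes only per length, as RPKM (CPM divided by the exon length of the gene in kilobases), over all 12 mice. C1qc stood highest at 70.5 ± 13.1 (SD, n = 12), followed by Cd5l at 69.1 ± 20.5, C1qb at 65.9 ± 13.3, C1qa at 63.5 ± 10.9 and Clec4f at 63.3 ± 9.84. Neighbours in this order did not differ beyond their spread, since each pair kept its order in only 5 to 9 of 12 mice. C1qc was nevertheless above C1qa in 12 of 12 mice. Vsig4 at 23.6 ± 4.11, Csf1r at 18.7 ± 3.99 and Cd68 at 10.3 ± 1.69 followed, each below its upper neighbour in 12 of 12 mice. Marco at 8.69 ± 7.08 and Timd4 at 4.61 ± 1.11 came last, each below its upper neighbour in 9 of 12 mice.

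The markers rose and fell together from mouse to mouse within each diet. All 10 markers were above their diet mean on the log2 scale in control 5, control 6, BIBB-515 7 and BIBB-515 9. All 10 were below it in control 1, control 4, BIBB-515 6 and BIBB-515 10. The summed level of the 10 markers was 526, 641, 583, 501, 767 and 814 CPM in control mice 1 to 6. It was 517, 846, 766, 747, 514 and 607 CPM in BIBB-515 mice 6 to 11. Both diets thus held high and low mice, and the mean of the sum was 639 ± 128 CPM in controls and 666 ± 140 with BIBB-515 (SD, n = 6 each).

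**Figure D3:**
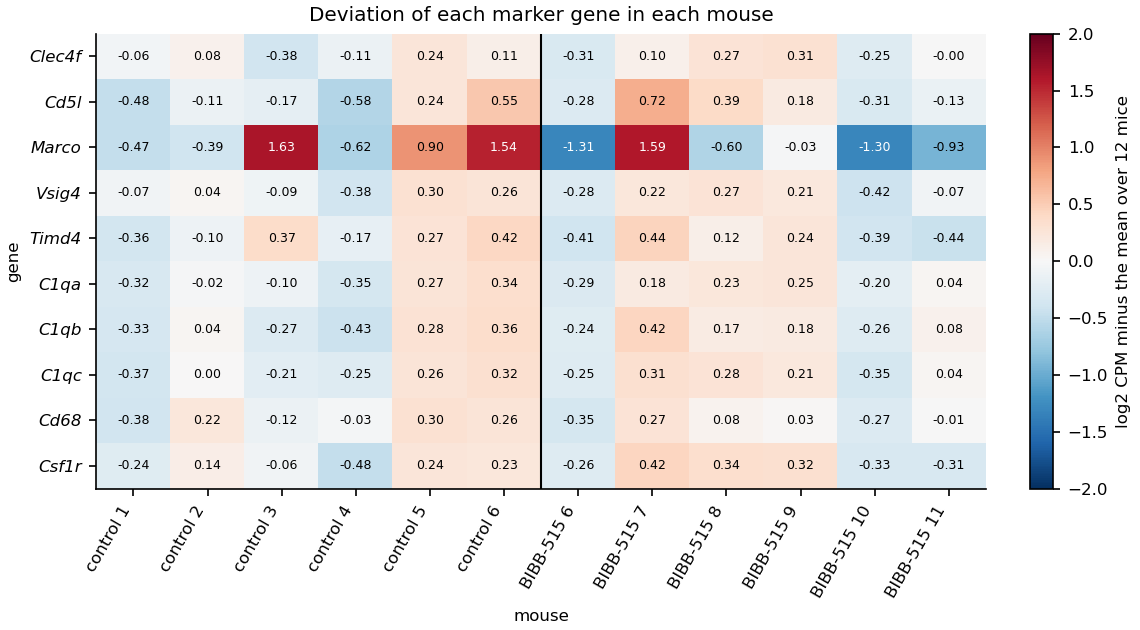
Log2 CPM of each marker (rows) in each mouse (columns) minus the gene's mean over 12 mice, in colour and printed, with a line between the diets. Columns control 5, control 6 and BIBB-515 7 are positive for all 10 markers, and control 1, control 4, BIBB-515 6 and BIBB-515 10 are negative for all 10.

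Deviations from the diet mean were correlated for the C1q chains over 12 mice, a comparison of 3 pairs. C1qa and C1qb had Pearson's r = 0.942 (permutation p = 3e-05, adjusted 3e-05) and Spearman's rho = 0.923 (permutation p = 6e-05, adjusted 9e-05). C1qa and C1qc had r = 0.956 (permutation p = 1e-05, adjusted 1.5e-05) and rho = 0.909 (permutation p = 0.0001, adjusted 0.0001). C1qb and C1qc had r = 0.961 (permutation p = 1e-05, adjusted 1.5e-05) and rho = 0.937 (permutation p = 2e-05, adjusted 6e-05). The value 1e-05 is the smallest that 100000 resamples can give. Without the 2 mice farthest from the median, r was 0.922, 0.944 and 0.967 for these pairs. Within the controls alone r was 0.975, 0.972 and 0.973, and within the BIBB-515 mice 0.891, 0.948 and 0.958.

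Over all 45 pairs of markers the median r was 0.833. The same quantity was 0.665 over 78 pairs of 13 endothelial genes, 0.129 over 66 pairs of stellate cell genes and 0.102 over 45 pairs of hepatocyte genes. Over 91 pairs of the 14 other Kupffer cell genes described further on it was 0.409. These values share libraries and scaling, and are given without a test. The lowest r of any pair were those of Clec4f to Marco (r = 0.258) and to Timd4 (r = 0.463). Without control 3 and BIBB-515 6 these were 0.508 and 0.709. Marco followed Timd4 most closely, at r = 0.917. Of 12034 other genes, those whose deviations were most like the mean of the markers included Lgmn (r = 0.972), Pla2g4a (0.963), Slc11a1 (0.963) and Fcer1g (0.960), each over 12 mice. Lgmn is a lysosomal protease, Slc11a1 a metal transporter of phagosomes and Fcer1g a signalling chain of Fc receptors.

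Upstream sequence is shown for C1qb and Vsig4, which moved together among mice at r = 0.911. It is taken from RefSeq's GRCm38.p6, covers the 250 bases before the start and is written 5′ to 3′ on the gene's strand, with capitals for GAGGAA, a core of sites for the macrophage factor PU.1. The C1qb window is chr4:136886201-136886450 and the Vsig4 window chrX:96293439-96293688, both on the minus strand.
C1qb: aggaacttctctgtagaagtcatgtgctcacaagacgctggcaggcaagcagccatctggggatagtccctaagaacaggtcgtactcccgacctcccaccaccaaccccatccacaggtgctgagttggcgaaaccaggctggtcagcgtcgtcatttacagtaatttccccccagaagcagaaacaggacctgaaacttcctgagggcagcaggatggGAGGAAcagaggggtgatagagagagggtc
Vsig4: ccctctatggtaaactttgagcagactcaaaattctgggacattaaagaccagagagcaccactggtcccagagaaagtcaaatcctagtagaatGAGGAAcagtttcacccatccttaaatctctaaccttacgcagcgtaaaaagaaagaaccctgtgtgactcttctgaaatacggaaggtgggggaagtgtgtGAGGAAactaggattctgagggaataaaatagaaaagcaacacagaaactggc

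The letters GAGGAA begin 30 bases before the RefSeq start in C1qb, and 155 and 53 bases before it in Vsig4. The C1qb window begins at chr4:136886201, while the counted C1qb gene ends at chr4:136886177, so its starts differ between the annotations. On either strand these letters occur in the windows of 6 of 8 markers searched (C1qb, C1qc, Cd5l, Cd68, Marco and Vsig4). They occur in 23.3% of the 32851 promoters in the table. C1qa and Csf1r were not searched. In the C1qc window 151 of the 250 bases are exonic in GENCODE, and in the Clec4f window 71. TGACTCA, the letters of an AP-1 site, occur on either strand in the window of Cd68 alone among the 8, and in 4.46% of all promoters. The motifs do not overlap each other in letters. A match describes the window only.

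Among 14 other genes of Kupffer cells, 4 fell with BIBB-515 and none rose, where 6.48% of all genes tested were called lower. They were Msr1, Slc40a1, Fcna and Cxcl13, and the median of the 14 was -0.04 with 7 above 0 and 7 below. Msr1, a scavenger receptor for modified lipoproteins, ranged from 10.7 to 13.8 CPM in controls and from 7.76 to 11.1 with BIBB-515 (log2 fold change -0.34, SE 0.09, edgeR FDR = 0.0262). Slc40a1, the iron exporter ferroportin, ranged from 159 to 227 CPM and from 109 to 167 (log2 fold change -0.45, SE 0.13, edgeR FDR = 0.0296). Fcna, a ficolin that activates the lectin pathway, ranged from 48.2 to 58.3 CPM and from 32.5 to 48.9 (log2 fold change -0.31, SE 0.09, edgeR FDR = 0.0368). Cxcl13, a chemokine for B cells, ranged from 1.57 to 5.01 CPM and from 1.05 to 2.59 (log2 fold change -0.90, SE 0.28, edgeR FDR = 0.0421). For each of the 4 the groups overlapped, and all 6 BIBB-515 mice were below the control mean.

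These 4 calls stood close to the threshold. Msr1 was lost without control 6 or without BIBB-515 9, 10 or 11, with FDR up to 0.0611, and Fcna without control 1, 4, 5 or 6 or BIBB-515 6, 10 or 11, with FDR up to 0.0775. Slc40a1 was lost without control 1, 5 or 6 or BIBB-515 6, 9, 10 or 11, with FDR up to 0.0641. Cxcl13 was lost without control 1, 3, 5 or 6 or BIBB-515 6, 7, 8, 10 or 11, with FDR up to 0.0935. With library size only Msr1 (FDR = 0.0584) and Fcna (FDR = 0.0681) were lost, and Cxcl13 with limma-voom (FDR = 0.0521). The log2 fold changes of all 4 stayed below 0 in 21 of 21 fits. As a ratio to Clec4f in the same library, a scale chosen after seeing the data and given without a test, the mean log2 differences were -0.38 for Msr1, -0.49 for Slc40a1, -0.36 for Fcna and -0.90 for Cxcl13. Slc40a1 is also expressed by hepatocytes. Emr1, the gene of the macrophage antigen F4/80 listed today as Adgre1, stood at 20.4 ± 7.95 CPM in controls and 21.6 ± 9.34 with BIBB-515 (SD, n = 6, edgeR FDR = 0.878).

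**Figure D4:**
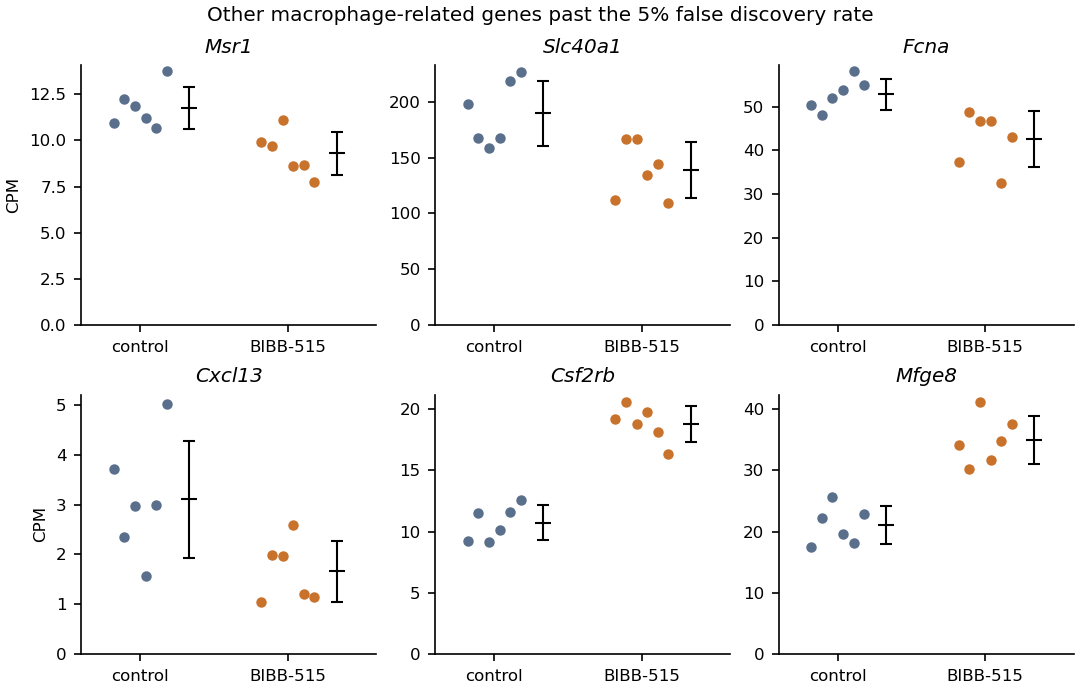
CPM (y axis, linear from 0) in each mouse of 4 Kupffer cell genes called lower and of Csf2rb and Mfge8, called higher, with the mean and SD beside the points. The groups are apart for Csf2rb and Mfge8 and overlap for Msr1, Slc40a1, Fcna and Cxcl13.

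Genes around the members' pathways are given beside the 13.7% called over all genes tested. Of 6 genes of the Csf1r axis and related cytokine receptors 1 was called (16.7%), and it was higher. It was Csf2rb, the shared beta chain of receptors for GM-CSF, IL-3 and IL-5, at 9.19 to 12.6 CPM in controls and 16.3 to 20.6 with BIBB-515 (log2 fold change 0.81, SE 0.09, edgeR FDR = 4.1e-05). The groups did not overlap, and the call held in 21 of 21 other fits. Csf1, the ligand, stood at 15.1 ± 2.91 and 12.2 ± 2.07 CPM (edgeR FDR = 0.134), and Il34 at 3.91 ± 0.55 and 4.19 ± 0.65 CPM (edgeR FDR = 0.65).

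Of 8 other complement genes, of the classical pathway, the lectin pathway and the shared C3 step, 1 was higher and 2 lower, or 37.5% called beside 13.7% of all genes tested. C2, the protease cleaved by activated C1s, rose from 111 ± 12.5 to 152 ± 14.8 CPM (log2 fold change 0.45, edgeR FDR = 0.00344). Serping1, the C1 inhibitor, fell by 0.44 on the log2 scale (edgeR FDR = 0.0104) and C1s1, a protease of the C1 complex, fell by 0.21 (edgeR FDR = 0.0269). The C1s1 call was lost without control 1 or 6 or BIBB-515 6, 7, 9 or 10, with library size only (FDR = 0.0664) and with no filter on low counts (FDR = 0.0697). These genes are made largely by hepatocytes. Of 11 tested genes of the uptake of dying cells, Mfge8, a bridge to phosphatidylserine, rose from 21.0 ± 3.10 to 35.0 ± 3.97 CPM with no overlap (log2 fold change 0.73, edgeR FDR = 0.00029), and Itgav, an integrin chain, fell by 0.28 (edgeR FDR = 0.00728).

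Of 12 transcription factors of the macrophage lineage 1 was called (8.33%, beside 13.7% of all genes tested). It was Cebpb, which rose from 48.2 ± 10.2 to 73.2 ± 15.2 CPM (log2 fold change 0.60, edgeR FDR = 0.018) and which hepatocytes also express. Of 18 genes shared by myeloid cells 2 were called (11.1%, below the 13.7% of all genes tested), both higher. Cd14, the co-receptor for lipopolysaccharide, rose by 0.53 on the log2 scale (edgeR FDR = 0.0238), and Npc2, a lysosomal carrier of cholesterol, rose by 0.22 (edgeR FDR = 0.0367). Cd14 was lost without control 1 or BIBB-515 7 or 10, with FDR up to 0.0565. Npc2 was lost without control 1 or 4 or BIBB-515 6, 8, 9, 10 or 11, with FDR up to 0.0769, and with no filter on low counts (FDR = 0.0513).

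Markers of incoming cells and of inflammation were examined next. Of 8 tested genes of recruited monocytes and their macrophages 1 was called, a share of 12.5% beside the 13.7% of all genes tested. It was Cd9, a tetraspanin also found on other cells, which fell by 0.82 on the log2 scale (edgeR FDR = 0.0123). Of the 8 log2 fold changes 5 were above 0 and 3 below. Ccr2, the chemokine receptor of inflammatory monocytes, stood at 2.00 ± 0.37 CPM in controls and 1.83 ± 0.46 with BIBB-515. Trem2, a lipid-sensing receptor of macrophages, stood at 0.993 ± 0.33 and 1.46 ± 0.29 CPM (edgeR FDR = 0.119), and Cx3cr1, the fractalkine receptor, at 1.72 ± 0.71 and 2.35 ± 0.29 CPM (edgeR FDR = 0.219). For both, all 6 BIBB-515 mice were above the control mean. Of 7 tested inflammatory genes 0 were called by edgeR, and the other 8 of the 15 listed did not reach the minimum level for the test. Among these 8 the groups overlapped for 7, in both directions, for example Ccl3 at 0.194 ± 0.14 and 0.162 ± 0.098 CPM. Il10, an anti-inflammatory cytokine with 1 to 19 reads per library, stood at 0.0888 ± 0.055 and 0.273 ± 0.17 CPM, with the highest level in BIBB-515 7. All 6 BIBB-515 mice were above the control mean of Il10. For Ccl2, a chemokine for monocytes named after its values were seen, the groups did not overlap, at 0.472 ± 0.15 and 0.798 ± 0.084 CPM. Over all genes tested, the groups did not overlap for 7.07%. Irf7, a transcription factor of the interferon response, had an edgeR FDR of 0.886. Lists of T and NK cells (5 tested), B cells (5), dendritic cells (6), neutrophils (1) and cholangiocytes (6) gave 0 calls in edgeR. Their leading genes were Ccl5 and Lck, Cd22 and Cd79b, Cd74 and H2-Aa, Csf3r, and Spp1 and Sox9. Spp1, a secreted protein also listed for monocyte-derived macrophages, stood at 82.6 ± 17.02 and 112 ± 22.4 CPM (log2 fold change 0.44, edgeR FDR = 0.0664), and it was past the threshold in 5 of 21 other fits. Cd74, the invariant chain of antigen presentation, stood at 93.6 ± 31.4 and 110 ± 23.0 CPM.

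Markers of the other liver cells are given beside the 13.7% of all genes tested that were called and the 6.48% that were called lower. The 13 endothelial genes gave 0 calls in edgeR, and a median log2 fold change of -0.12. Eng stood at 80.6 ± 9.48 and 75.9 ± 6.17 CPM and Stab2 at 65.7 ± 9.48 and 58.6 ± 7.19 CPM. Of 12 stellate cell genes 2 were called (16.7%), Lrat and Dcn, which were lower, with log2 fold changes of -0.81 and -0.27 (edgeR FDR = 0.0202 and 0.0398). The Dcn call was lost without control 1, 3, 4 or 6 or BIBB-515 7, 8, 9 or 10, with library size only (FDR = 0.105), with upper-quartile factors (FDR = 0.0518) and with no filter on low counts (FDR = 0.0620). Of 10 hepatocyte genes 4 were called (40%), Trf, Ttr, Alb and Fgb, which were lower, and the summed level of the list was 166417 to 186316 CPM in controls and 125095 to 140703 with BIBB-515, with no overlap. Fgb was lost in 9 of 12 fits that left out a mouse (without control 1, 5 or 6 or any of the BIBB-515 mice), with FDR up to 0.0833. Without the filter on low counts Alb (FDR = 0.0591) and Fgb (FDR = 0.0695) were lost. Alb alone made up 120094 of the mean sum of 176914 CPM in controls. The other 6 genes (Apoa1, Hnf4a, Cps1, Tat, Apob and Asgr1) were not called. The part of these abundant transcripts in the levels of the macrophage genes was not tested beyond the other scalings. As log2 ratios to B2m the 10 markers gave 0 with an exact permutation p under 0.05. Of the erythroid list the 4 globin genes were listed at 0 in all libraries, and Alas2 stood at 12.4 ± 2.42 and 11.1 ± 1.84 CPM. The reason for these globin counts was not tested, and they are not read as absence of red cell RNA. Of the adipose list Lep was at 0 and Cidec, also made in fatty hepatocytes, stood at 7.16 ± 3.05 and 10.8 ± 3.66 CPM.

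**Figure D5:**
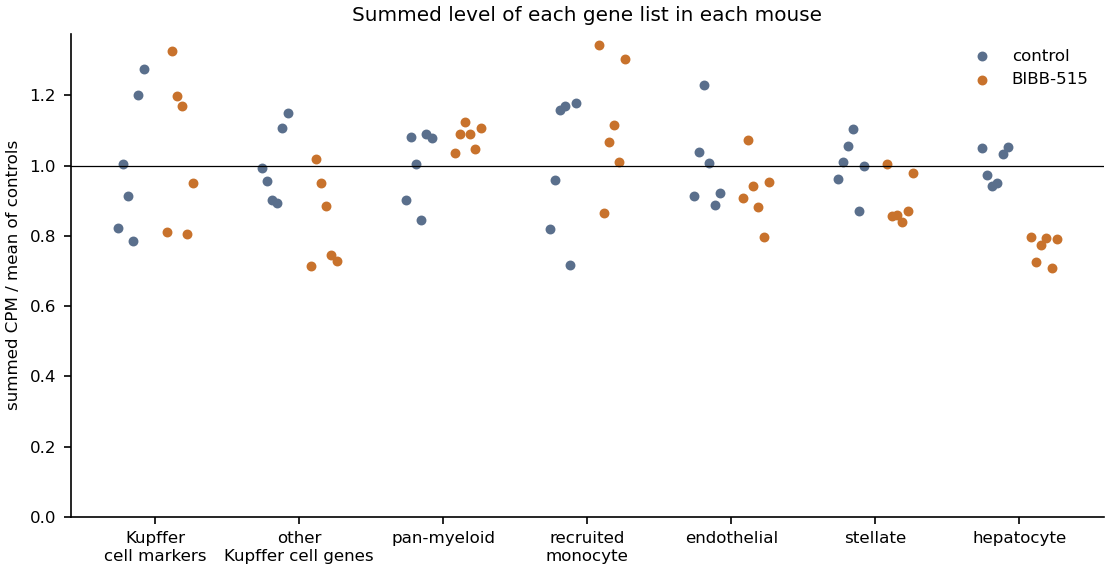
Summed CPM of each gene list in each mouse divided by the mean of the 6 controls (y axis, linear from 0), with 6 points for each diet. The Kupffer cell marker sums of the diets overlap, at 501 to 814 CPM in controls and 514 to 846 with BIBB-515, whereas the hepatocyte sums of all 6 BIBB-515 mice lie below all controls.

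Exon counts were compared without a test. Over exons with a mean of at least 50 reads, log2 ratios of mean CPM ran from 0.03 to 0.11 for the 7 exons of Clec4f and from 0.05 to 0.22 for the 3 exons of C1qb. For Csf1r 19 of 20 such exons were above 0, up to 0.27. The signs were mixed for Vsig4 (3 exons lower and 3 higher), Cd68 (3 lower and 4 higher) and C1qc (1 lower and 2 higher). The share of reads in the last exon, a rough sign of bias to the 3′ end, was 31.5% ± 4.14 in controls and 30.2% ± 2.47 with BIBB-515 for Csf1r (SD, n = 6), and 29.2% ± 2.33 and 29.1% ± 2.02 for Clec4f. The mean of this share was lower with BIBB-515 for every marker. The share was not taken over all genes, so a trait of the markers and a trait of the libraries cannot be told apart. The share was 45.4% ± 5.59 and 40.1% ± 2.66 for Timd4, and 51.4% ± 3.58 and 48.9% ± 2.47 for Cd5l.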

How the data were processed

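Per the labels, the files hold RNA-seq of total liver RNA from 6 control and 6 BIBB-515 mice, and no sequencing batch or cage is given for any library. The authors mapped reads with STAR 2.5.3a to mm10 and counted them with featureCounts (Subread 1.6.3), by the submitters' processing notes. The deposited values used here are raw counts per gene and per exon. The headers name no strand option, so strands were not told apart. The members and gene lists were chosen with earlier results of these data known.

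The test took genes that reached 1 CPM in 2 or more libraries. It was run with edgeR 4.0.16 (R 4.3.3), TMM scaling, the quasi-likelihood test and Benjamini-Hochberg adjustment over 12481 genes. DESeq2 1.42.0, limma-voom 3.58.1, sva 3.50.0, other scalings, filters and tables, and the removal of each mouse were tried. On simulated counts of this comparison, with 12367 genes tested, edgeR recovered 100% of 99 genes changed by 1 on the log2 scale and 100% of 100 changed by 2. Of its calls in that run 5.24% were false. Recovery of changes smaller than 1 on the log2 scale was not tested. Recovery for each marker at its own spread was not tested either. The SE of Marco's log2 fold change was 0.54, and the median SE over all genes tested was 0.098. Replicate libraries differed by more than sampling noise (lowest chi-square per degree of freedom 12.7). Nothing names the mice as separate beyond the labels' sample numbers, so p-values measure the spread between these samples.

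The text names all 10 members, up to 4 called genes of each other list by p, otherwise the 2 with the highest CPM, and the 5 genes most like the members, except 2 genes that are not reported here. Of the other genes it names, Emr1, Csf1, Il34, Ccr2, Trem2, Cx3cr1, Ccl2, Ccl3, Il10, Spic and Itgb2 were chosen after their values were seen. The hepatocyte genes not called, B2m as a reference for ratios and Hmgxb3 for its shared words are also named. Transcript-level tables were not used. Intervals of fold changes cover the spread between samples.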

Additional observations from a re-analysis of the deposited data

Results flagged for a closer look

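In a group of 6, a mouse was taken as extreme where its distance to the next mouse, divided by highest minus lowest, exceeded Dixon's 95% critical value. Of 92 groups examined 4 met this, where chance gives about 4.6. Marco in BIBB-515 7 stood at 39.2 CPM, and the next mouse of the group at 12.7 (gap share 0.78). Cidec was also highest in BIBB-515 7, at 17.7 against 11.0 CPM (gap share 0.697). C1s1 was highest in BIBB-515 8, at 507 against 481 CPM (gap share 0.644). Irf7 was lowest in control 3, at 49.2 against 75.7 CPM (gap share 0.715).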

How the results depend on the processing

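No paired analysis was possible because the replicate numbers of the groups share only the number 6. In the 9 other settings that kept all mice, 0 of 10 markers were called. The count of all genes called was 1489 with no filter on low counts and 2407 with a surrogate variable. Vsig4 turned to 0.043 on the log2 scale with library size only and to 0.017 as a ratio to B2m, and the cause was not tested. The count of other Kupffer cell genes called was 2 with library size only. Leaving out each mouse in turn gave 1199 to 1865 genes called, 0 to 1 markers, 0 to 4 other Kupffer cell genes and 11 to 21 genes of all other lists. The log2 fold changes ran from -0.017 to 0.107 for Clec4f, -1.50 to -0.45 for Marco, -0.076 to 0.058 for Vsig4 and -0.0089 to 0.144 for Csf1r. Of other genes not called, Irf7 ran from -0.057 to 0.083, Ccl5 from -0.077 to 0.189, Lck from -0.060 to 0.180, Csf3r from -0.052 to 0.149 and Cd79b from -0.227 to 0.131, so that their sign turned without some mice. Among the 10 markers Marco and Timd4 had the fewest reads, with 141 and 176 in their lowest libraries, and Cxcl13 had 28.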

Other observations

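BIBB-515 7 also stood high in Spic, Itgb2 and Emr1, chosen after their values were seen. Not all genes of the macrophage lists were high in that mouse. Npc2 at 125 CPM and Spp1 at 81.7 CPM were the lowest of the BIBB-515 group there. Spic, a factor of iron-handling macrophages, was at 7.45 CPM there and at 1.40 to 2.10 in the other 5 BIBB-515 mice, and controls ranged from 1.65 to 3.07. Itgb2, the beta chain of leukocyte integrins, was at 19.3 CPM there and at most 11.8 in any other mouse. Emr1 was at 38.5 CPM there, and control 6 was next at 34.1. Control 3, which had the highest Marco level of all 12 mice at 40.2 CPM, had Spic at 1.93 and Itgb2 at 8.14 CPM.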
